A study of Rattus norvegicus with 70 samples.

Results

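The 37 genes described here encode enzymes and regulators of cholesterol and fatty acid synthesis. They were taken by their symbols from a rat count table of 17048 gene rows, in which all 37 were found once. Their RNA was read in 5 organs (liver, ovary, testis, kidney, thyroid) of rats of the outbred Sprague-Dawley stock on postnatal day 63. Mix rats were born to dams dosed with 160 mg/kg/day bisphenol A, 160 mg/kg/day bisphenol F and 180 mg/kg/day bisphenol S, 500 mg/kg/day in all, between gestational day 6 and lactation day 6. They were themselves dosed with the mixture at 250 mg/kg/day between postnatal days 7 and 63. BPA rats had bisphenol A alone at the same total doses over the same days, and vehicle rats had neither. The linker between the phenol rings is isopropylidene in bisphenol A, methylene in bisphenol F and sulfonyl in bisphenol S. Each of the 24 groups of 1 organ, sex and treatment held 3 rats, save the BPA and the vehicle kidneys of females with 2 each. The dams' litters were reduced to 3 pups of each sex, and the labels give neither the litter nor the stage of the oestrous cycle. Littermates may stand in 1 group and p-values measure only the spread between these rats.

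Cholesterol is built from acetyl-CoA through the mevalonate pathway to squalene, which is folded into lanosterol and trimmed in a chain of reactions of the endoplasmic reticulum to cholesterol. Transcription of these enzymes is driven by the membrane-bound factor that Srebf2 encodes, and that of the fatty acid enzymes by the products of Srebf1 and Mlxipl. The Insig proteins hold the Srebf products in the endoplasmic reticulum when sterols are plentiful, and Insig1 is itself a target of the pathway. Liver makes cholesterol and fatty acids for export, and the steroid-producing cells of ovary and testis use cholesterol as the precursor of progesterone, androgens and oestrogens.

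By role the set held 8 genes of the mevalonate pathway, 11 that lead through squalene to cholesterol, 4 of sterol regulation and transport, 7 of fatty acid synthesis, 4 of elongation and desaturation and 3 of lipogenic regulation. The genes of the first 2 roles are counted below as the 19 enzymes of cholesterol synthesis. They include Ggps1, whose product leads away from cholesterol. Levels are CPM, counts scaled to library size by edgeR within an organ and sex, and library totals ran between 4803807 and 10929957 counts. Ribosomal RNA took between 0.657% and 37.1% of a library's counts. A fold change is given on the log2 scale ± its standard error, and a gene was called when its Benjamini-Hochberg adjusted p over all genes tested, in edgeR's quasi-likelihood test, was under 0.05. The BPA and the Mix comparisons of an organ share their vehicle libraries, so the values of both are given side by side and their likeness was not tested. Libraries were read at the 3′ end of transcripts, and levels of different genes are not compared. As these are bulk tissues, fewer cells of a type and less RNA per cell cannot be told apart.

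The 250 bases before the start of each gene, on the RefSeq build GRCr8, were found for 28 of the 37 genes. They are printed 5′ to 3′ for the 7 genes that rose in Mix ovary and for Insig1, which fell in male liver. Capitals mark each CCAAT box (CCAAT or, on the other strand, ATTGG), the element bound by NF-Y, and each match to a relaxed sterol regulatory element. Fdps, which makes farnesyl pyrophosphate, is added because its relaxed element lies between 2 CCAAT boxes.
Hmgcs1: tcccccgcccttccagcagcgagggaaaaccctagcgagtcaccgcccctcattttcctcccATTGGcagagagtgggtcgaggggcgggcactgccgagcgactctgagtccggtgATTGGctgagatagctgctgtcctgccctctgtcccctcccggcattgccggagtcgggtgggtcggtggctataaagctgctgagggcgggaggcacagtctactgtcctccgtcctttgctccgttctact
Msmo1: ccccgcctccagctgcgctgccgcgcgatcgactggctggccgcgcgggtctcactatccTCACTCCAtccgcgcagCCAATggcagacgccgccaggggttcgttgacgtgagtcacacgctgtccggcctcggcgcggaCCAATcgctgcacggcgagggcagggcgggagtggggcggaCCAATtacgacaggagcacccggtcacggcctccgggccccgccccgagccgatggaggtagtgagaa
Hsd17b7: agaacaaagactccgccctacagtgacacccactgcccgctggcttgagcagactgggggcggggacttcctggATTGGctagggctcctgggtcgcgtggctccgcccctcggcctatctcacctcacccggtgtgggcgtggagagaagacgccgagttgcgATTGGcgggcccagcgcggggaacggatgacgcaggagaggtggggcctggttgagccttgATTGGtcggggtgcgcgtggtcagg
Ebp: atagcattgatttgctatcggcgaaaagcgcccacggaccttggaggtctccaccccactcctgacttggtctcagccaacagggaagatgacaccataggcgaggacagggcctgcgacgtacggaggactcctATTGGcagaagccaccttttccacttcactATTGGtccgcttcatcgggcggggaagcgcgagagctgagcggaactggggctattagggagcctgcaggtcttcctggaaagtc
Sc5d: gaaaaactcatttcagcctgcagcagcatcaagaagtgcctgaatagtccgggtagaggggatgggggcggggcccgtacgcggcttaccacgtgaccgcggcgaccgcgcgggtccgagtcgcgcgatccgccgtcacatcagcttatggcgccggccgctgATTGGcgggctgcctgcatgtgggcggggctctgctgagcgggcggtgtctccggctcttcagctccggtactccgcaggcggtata
Acly: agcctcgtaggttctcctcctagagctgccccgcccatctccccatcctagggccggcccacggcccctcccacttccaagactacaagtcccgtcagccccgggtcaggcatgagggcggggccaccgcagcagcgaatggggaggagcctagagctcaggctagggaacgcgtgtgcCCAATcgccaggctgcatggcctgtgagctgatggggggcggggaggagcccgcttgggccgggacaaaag
Acss2: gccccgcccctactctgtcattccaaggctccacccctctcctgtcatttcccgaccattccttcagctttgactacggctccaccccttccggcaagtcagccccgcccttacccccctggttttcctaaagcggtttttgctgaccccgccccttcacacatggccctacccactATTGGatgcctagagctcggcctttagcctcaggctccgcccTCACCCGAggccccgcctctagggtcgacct
Insig1: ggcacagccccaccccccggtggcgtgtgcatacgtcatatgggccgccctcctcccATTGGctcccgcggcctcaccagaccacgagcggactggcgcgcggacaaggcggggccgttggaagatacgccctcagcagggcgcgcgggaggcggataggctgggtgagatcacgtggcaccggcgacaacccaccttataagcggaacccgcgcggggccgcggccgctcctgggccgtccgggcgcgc
Fdps: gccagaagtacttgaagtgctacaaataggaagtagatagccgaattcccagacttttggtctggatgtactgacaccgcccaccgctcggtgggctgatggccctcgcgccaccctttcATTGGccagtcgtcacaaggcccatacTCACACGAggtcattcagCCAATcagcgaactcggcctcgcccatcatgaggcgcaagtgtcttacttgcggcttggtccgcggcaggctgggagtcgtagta

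These windows lie at chr2:53382054-53382303 (plus strand) for Hmgcs1, chr16:29746863-29747112 (plus strand) for Msmo1, chr13:84722755-84723004 (minus strand) for Hsd17b7, chrX:16971212-16971461 (plus strand) for Ebp and chr8:51538278-51538527 (minus strand) for Sc5d. The others lie at chr10:85963632-85963881 (minus strand) for Acly, chr3:164464453-164464702 (plus strand) for Acss2, chr4:8057770-8058019 (minus strand) for Insig1 and chr2:176804817-176805066 (minus strand) for Fdps. The letters TCACNCCAC, searched on both strands as the sterol regulatory element, were in 0 of the 28 windows, against 0.974% of 33469 windows of all genes. The share was 0.985% among the 12186 windows whose genes are in the count table. A relaxed form, TCACNCNA, chosen after the first search had no match, was in 5 of 28 (17.9%), against 8.38% of all windows and 7.88% of those in the table. Those 5 were Fdps, Msmo1, Acss2, Srebf2 and Pnpla3, and of the 7 genes that rose in Mix ovary Msmo1 and Acss2 are among them. A CCAAT box was in 22 of 28 windows (78.6%), against 34.0% of all windows and 34.9% of those in the table. Hmgcs1 and Ebp had 2 such boxes each, Msmo1 and Hsd17b7 3 each, and Sc5d, Acly, Acss2 and Insig1 1 each. The GC box GGGCGG was in 21 of 28 windows (75%), against 30.5% of all windows and 50.6% of those in the table. The E-box CACGTG was in 3 (10.7%), those of Sc5d, Insig1 and Elovl5, against 5.59% and 7.13%. These matches describe the windows, and no binding was measured.

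In the ovary, genes of cholesterol synthesis were higher in Mix rats. Of 32 members tested, 7 rose in Mix against vehicle and 0 fell, where 4.13% of all genes tested rose and 4.99% fell. They were 5 enzymes of cholesterol synthesis, Hmgcs1, Msmo1, Hsd17b7, Ebp and Sc5d, and 2 enzymes that supply acetyl-CoA in the cytosol, Acly and Acss2. The median log2 fold change was 0.39 over the 32 members and 0.59 over the 19 enzymes of cholesterol synthesis, against 0.013 over all genes. In BPA ovaries 1 of 32 rose, Hsd17b7, and 0 fell, where 2.91% of all genes rose and 3.88% fell. The median for BPA was -0.018 over the members, against 0.015 over all genes. Between Mix and BPA 0 of 32 passed in edgeR, where 0.212% of all genes did. At an unadjusted p under 0.05, 16 were higher and 0 lower in Mix, where 6.29% of all genes were higher and 5.7% lower. DESeq2 called 7 members and 2.64% of all genes. The median of Mix minus BPA was 0.61 over the members and 0.0046 over all genes. Insig2, Acacb, Elovl5, Mlxipl and Pnpla3 were left out by the filter on low counts.

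**Figure D1:**
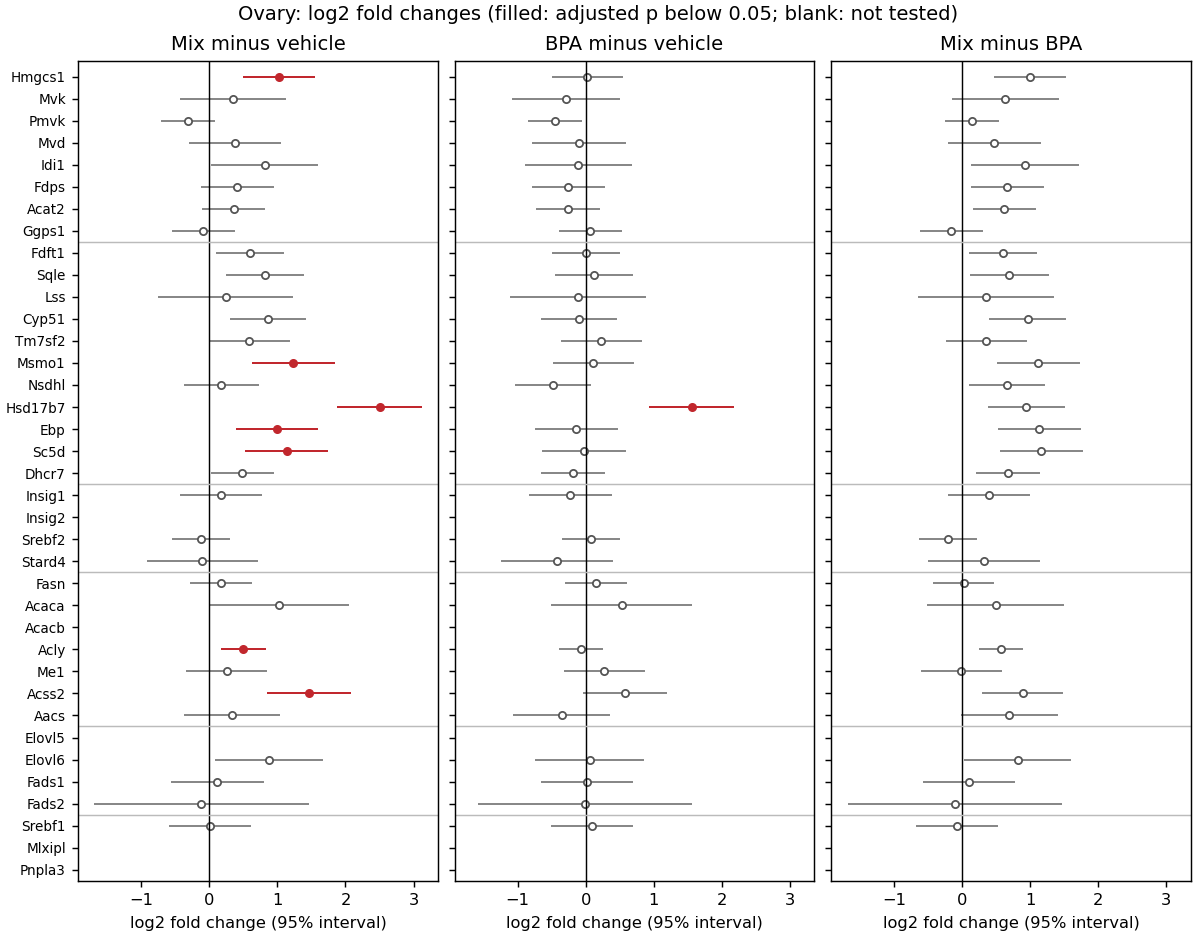
Log2 fold changes in the ovary for the members tested, Mix minus vehicle and BPA minus vehicle, with 95% intervals, grouped by role and with called genes marked. The 11 genes that lead through squalene to cholesterol all lie above 0 for Mix minus vehicle.

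Hsd17b7, the sterol ketoreductase that acts while the methyl groups of the sterol ring are being removed, had the largest fold change of the members tested in the ovary. It stood at 23.4, 18.6 and 29.5 CPM in Mix ovaries, 10.1, 15.6 and 11.6 CPM in BPA ovaries and 4.07, 4.23 and 4.24 CPM in vehicle ovaries. Every Mix ovary was above every BPA ovary, and every BPA ovary above every vehicle ovary. The log2 fold change was 2.50 ± 0.28 (95% interval 1.90 to 3.11, adjusted p = 0.000844) for Mix minus vehicle and 1.56 ± 0.28 (95% interval 0.95 to 2.17, adjusted p = 0.00855) for BPA minus vehicle. Mix minus BPA was 0.95 ± 0.26 (95% interval 0.39 to 1.503, adjusted p = 0.143) and did not pass.

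Hmgcs1 makes the HMG-CoA from which mevalonate is formed, and was the 1 of 8 mevalonate genes that passed. Its level was 369, 375 and 465 CPM in Mix ovaries, 143, 289 and 174 CPM in BPA ovaries and 234, 200.99 and 160.4 CPM in vehicle ovaries. The 3 Mix ovaries lay above the other 6, while BPA and vehicle ovaries overlapped. The fold change was 1.02 ± 0.24 (95% interval 0.51 to 1.53, adjusted p = 0.0202) for Mix minus vehicle and 0.025 ± 0.23 (adjusted p = 0.971) for BPA minus vehicle. Mix minus BPA was 0.998 ± 0.24 (95% interval 0.49 to 1.51, adjusted p = 0.0928). Idi1, which interconverts the isoprene building blocks, had 767, 707 and 1154 CPM in Mix ovaries, 223, 795 and 367 CPM in BPA ovaries and 595, 434 and 465 CPM in vehicle ovaries. All Mix ovaries exceeded all vehicle ovaries, but 1 BPA ovary lay among the Mix ones. Mix minus vehicle, 0.81 ± 0.36 (adjusted p = 0.173), did not pass. Fdps had 155, 163 and 173 CPM in Mix ovaries, 101, 147 and 62.7 CPM in BPA ovaries and 149, 110.8 and 109.7 CPM in vehicle ovaries. Again Mix lay above both other groups, and Mix minus vehicle was 0.41 ± 0.24 (adjusted p = 0.315). Pmvk, a kinase of the pathway, was the 1 member lower in every Mix than in every vehicle ovary, with -0.31 ± 0.18 (adjusted p = 0.307). The other members of the pathway, Mvk, Mvd, Acat2 and Ggps1, lay between -0.089 and 0.38 for Mix minus vehicle.

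Beyond squalene, 4 of 11 genes rose in Mix ovaries, all 11 fold changes were above 0, and their median was 0.82. These values come from the same ovaries and are not independent. Msmo1, which oxidises the methyl groups of the sterol ring, had 418, 502 and 507 CPM in Mix ovaries, 159, 328 and 170.2 CPM in BPA ovaries and 272, 185 and 149 CPM in vehicle ovaries. The lowest Mix ovary was above the highest of the others. The fold change was 1.24 ± 0.27 (95% interval 0.64 to 1.83, adjusted p = 0.0175) for Mix minus vehicle and 1.121 ± 0.27 (95% interval 0.53 to 1.71, adjusted p = 0.106) for Mix minus BPA. Sc5d, a sterol desaturase late in the pathway, stood at 127.2, 130.3 and 169.7 CPM in Mix ovaries, 62.2, 85.2 and 43.5 CPM in BPA ovaries and 94.4, 53.2 and 46.2 CPM in vehicle ovaries. Its fold change was 1.14 ± 0.28 (95% interval 0.54 to 1.74, adjusted p = 0.0244) for Mix minus vehicle and 1.16 ± 0.28 (95% interval 0.57 to 1.76, adjusted p = 0.0946) for Mix minus BPA. Ebp, the sterol isomerase before it, had 97.1, 79.1 and 101 CPM in Mix ovaries, 41.3, 57.5 and 27.4 CPM in BPA ovaries and 54.6, 28.7 and 55.0 CPM in vehicle ovaries. Its fold change was 0.998 ± 0.27 (95% interval 0.41 to 1.59, adjusted p = 0.0384) for Mix minus vehicle and 1.14 ± 0.27 (95% interval 0.55 to 1.72, adjusted p = 0.0967) for Mix minus BPA. For Sc5d and Ebp, too, no Mix ovary overlapped the other groups. For BPA minus vehicle, Msmo1, Sc5d and Ebp had 0.11 (adjusted p = 0.848), -0.026 (adjusted p = 0.9754) and -0.14 (adjusted p = 0.814).

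Cyp51, which removes the first methyl group of lanosterol, fell short of the threshold with 0.86 ± 0.25 (95% interval 0.31 to 1.41, adjusted p = 0.0521) for Mix minus vehicle. Its Mix ovaries nonetheless lay apart, at 492, 363 and 571 CPM in Mix ovaries, 190.2, 348 and 194 CPM in BPA ovaries and 325, 255 and 205 CPM in vehicle ovaries. Sqle, the squalene epoxidase, had 189, 115 and 177 CPM in Mix ovaries, 77.6, 138 and 82.5 CPM in BPA ovaries and 121, 78.6 and 73.6 CPM in vehicle ovaries. Its lowest Mix ovary lay within the range of both other groups. For Mix minus vehicle it had 0.82 ± 0.26 (adjusted p = 0.0681) and for Mix minus BPA 0.70 ± 0.26 (adjusted p = 0.296). Fdft1, the squalene synthase, had 0.60 ± 0.22 (adjusted p = 0.112) for Mix minus vehicle and Tm7sf2, a sterol reductase, 0.59 ± 0.27 (adjusted p = 0.191). Dhcr7, the last reductase of the pathway, had 0.49 ± 0.21 (adjusted p = 0.161), Lss, the lanosterol synthase, 0.24 ± 0.45 (adjusted p = 0.793) and Nsdhl 0.18 ± 0.25 (adjusted p = 0.709).

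**Figure D2:**
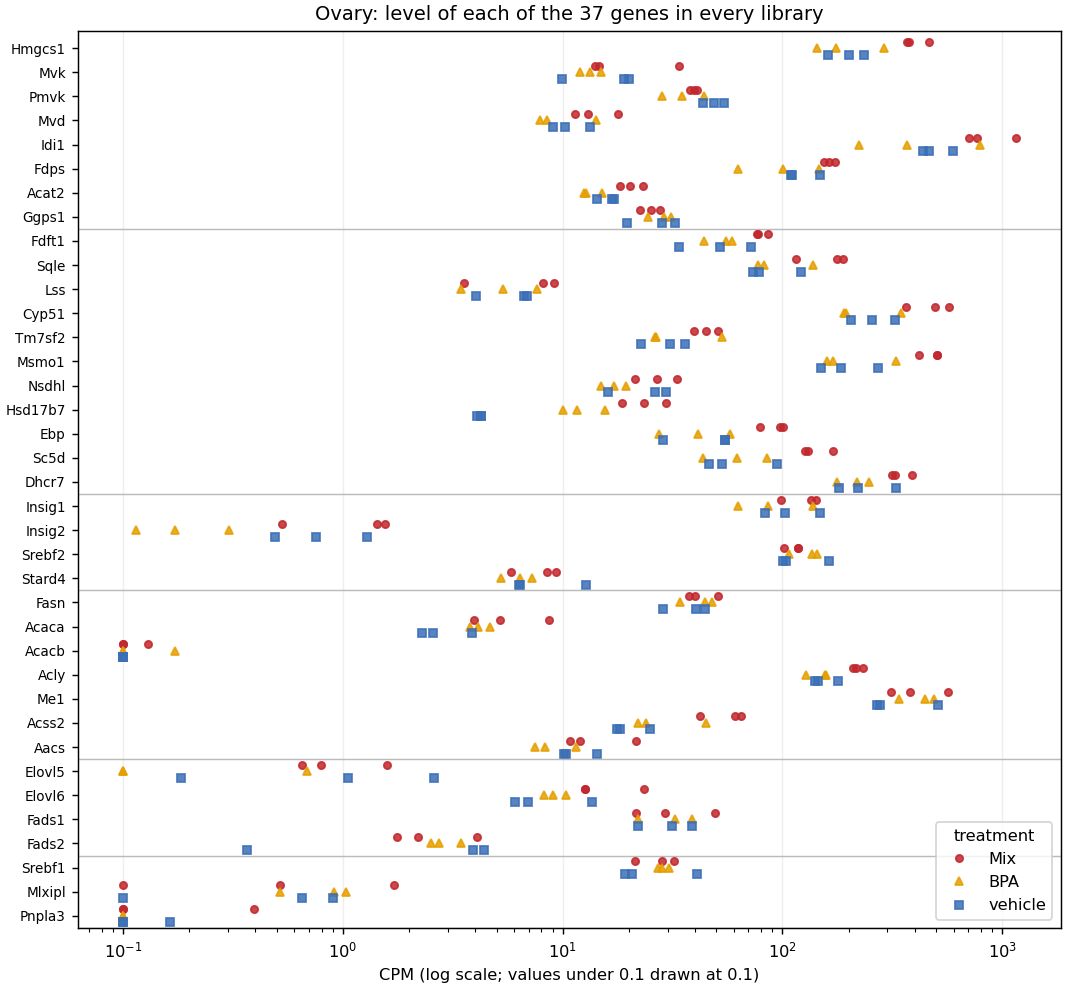
Levels in CPM (log axis) of ovary members in each rat, in Mix, BPA and vehicle ovaries, with 1 point a rat. The 3 Mix points of Hmgcs1, Msmo1 and Hsd17b7 lie above all BPA and vehicle points.

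Of the genes that feed fatty acid synthesis, Acss2, which makes acetyl-CoA from acetate, had 64.5, 42.0 and 60.7 CPM in Mix ovaries, 23.9, 44.7 and 22.1 CPM in BPA ovaries and 18.2, 24.8 and 17.6 CPM in vehicle ovaries. The highest BPA ovary passed the lowest Mix ovary, and all Mix ovaries were above all vehicle ones. The fold change of Mix minus vehicle was 1.46 ± 0.28 (95% interval 0.87 to 2.06, adjusted p = 0.00909). BPA minus vehicle was 0.57 ± 0.28 (adjusted p = 0.232) and Mix minus BPA 0.89 ± 0.27 (95% interval 0.31 to 1.47, adjusted p = 0.193). Acly, which makes acetyl-CoA from citrate, had 233, 216 and 208 CPM in Mix ovaries, 157, 158 and 127.9 CPM in BPA ovaries and 178, 145 and 141 CPM in vehicle ovaries, with Mix above the rest. Its fold change was smaller, 0.50 ± 0.14 (95% interval 0.19 to 0.81, adjusted p = 0.0455) for Mix minus vehicle. It was -0.066 ± 0.14 (adjusted p = 0.833) for BPA minus vehicle and 0.57 ± 0.14 (adjusted p = 0.112) for Mix minus BPA. Fasn, the fatty acid synthase itself, overlapped in all groups, at 51.0, 37.4 and 40.1 CPM in Mix ovaries, 44.2, 34.3 and 47.9 CPM in BPA ovaries and 44.6, 40.5 and 28.7 CPM in vehicle ovaries. Its fold change for Mix minus vehicle was 0.17 ± 0.20 (95% interval -0.27 to 0.62, adjusted p = 0.644). Acaca, which makes malonyl-CoA, had Mix ovaries above vehicle ones and 1.02 ± 0.47 (adjusted p = 0.191). None of the 3 elongation and desaturation genes tested passed: Elovl6 had 0.88 ± 0.36 (adjusted p = 0.145), and Fads1 and Fads2, the desaturases of polyunsaturated fatty acids, 0.12 and -0.12.

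The regulators did not pass in the ovary. Insig1 had 141, 98.2 and 135 CPM in Mix ovaries, 62.7, 138 and 85.5 CPM in BPA ovaries and 147, 103 and 83.1 CPM in vehicle ovaries. The 3 groups overlapped, and Mix minus vehicle was 0.17 ± 0.27 (95% interval -0.42 to 0.76, adjusted p = 0.754). Srebf1 had 28.2, 32.1 and 21.2 CPM in Mix ovaries, 27.3, 30.5 and 28.4 CPM in BPA ovaries and 40.9, 19.1 and 20.7 CPM in vehicle ovaries. For Mix minus vehicle the fold change was 0.011 ± 0.27 (95% interval -0.57 to 0.60, adjusted p = 0.989), with overlap. BPA minus vehicle was -0.22 ± 0.27 (adjusted p = 0.679) for Insig1 and 0.089 ± 0.27 (adjusted p = 0.889) for Srebf1. It was 0.12 ± 0.26 (adjusted p = 0.829) for Sqle and 0.15 ± 0.20 (adjusted p = 0.712) for Fasn. Mix minus BPA was 0.39 ± 0.27 (adjusted p = 0.617) for Insig1, -0.077 ± 0.27 (adjusted p = 0.951) for Srebf1 and 0.022 ± 0.20 (adjusted p = 0.986) for Fasn. Srebf2 and Stard4, a carrier of cholesterol, had -0.12 and -0.10 for Mix minus vehicle. Pnpla3, a lipase of lipid droplets, was read in 2 of 9 ovaries, at 0.396 CPM in 1 Mix and 0.163 CPM in 1 vehicle ovary. Of 29 other genes of lipid synthesis and sterol handling that were tested, 2 rose in Mix and 1 in BPA ovaries and 0 fell in either, where 4.13% of all genes rose in Mix and 2.91% in BPA. Mid1ip1, which promotes polymerisation of acetyl-CoA carboxylase, rose in both, by 1.09 ± 0.21 in Mix (adjusted p = 0.0112) and 1.57 ± 0.22 in BPA (adjusted p = 0.00182).

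Levels of the 3 Mix ovaries lay above those of the 3 vehicle ovaries for 14 of 32 members, against 14.7% of all genes, and below them for 1, against 14.4%. Of the 14, 11 were enzymes of cholesterol synthesis. Mix ovaries lay above BPA ovaries for 13 of 32, against 10.1% of all genes, and below for 0, against 8.72%. BPA ovaries lay above vehicle ovaries for 1 member, against 13.6%, and below for 0, against 14.4%.

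Summed over the 19 enzymes, cholesterol synthesis stood at 3287, 3074 and 3941 CPM in Mix ovaries, 1442, 2673 and 1505 CPM in BPA ovaries and 2459, 1781 and 1652 CPM in vehicle ovaries. The sums of the Mix ovaries were the 3 highest, and 1 BPA ovary, replicate 2, was above every vehicle ovary. That ovary was the highest of the BPA group for 15 of the 19 enzymes, and vehicle replicate 1 the highest of its group for 16. The call of 7 genes rested on several ovaries: without vehicle replicate 2, vehicle replicate 3 or Mix replicate 3 it was 2, Hsd17b7 and Acss2, and without Mix replicate 1 it was 3. Without vehicle replicate 1 it was 10. The shares of all genes called in these fits that left out 1 ovary are not reported here. With the share of ribosomal RNA in the model the count of members was 4 (Hsd17b7, Acss2, Hmgcs1 and Msmo1), and Hsd17b7 no longer passed in BPA ovaries. Of all 10871 genes, that fit called 638 for Mix and 100 for BPA minus vehicle. Without that covariate 449 rose and 542 fell in Mix, and 316 rose and 422 fell in BPA ovaries. The ribosomal RNA share was 18.6% to 23.8% in Mix, 12.4% to 19.1% in BPA and 20.6% to 29.3% in vehicle ovaries.

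Markers of ovarian cell types also differed between the groups. The 5 measured of 6 listed genes of luteal and steroid-producing cells summed to 2587 to 3409 CPM in Mix ovaries, 1334 to 1755 CPM in BPA ovaries and 2028 to 2327 CPM in vehicle ovaries. The Mix sums of these genes were the highest, but the genes of the list did not all follow the sum. Among them Lhcgr, the receptor for luteinising hormone, was 20.8 to 57.3 CPM in Mix ovaries, 24.9 to 50.1 CPM in BPA ovaries and 1.63 to 4.98 CPM in vehicle ovaries. Star, which moves cholesterol into mitochondria for steroid synthesis, was 1532 to 2194 CPM in Mix ovaries, 663 to 907 CPM in BPA ovaries and 1382 to 1721 CPM in vehicle ovaries. The 2 theca markers, shared with Leydig cells and both measured, summed to 130.5 to 273 CPM in Mix ovaries, 99.3 to 271 CPM in BPA ovaries and 5.87 to 26.1 CPM in vehicle ovaries. One of them, Cyp17a1, the enzyme that leads to androgens, was 124 to 265 CPM in Mix ovaries, 80.4 to 229 CPM in BPA ovaries and 1.80 to 5.13 CPM in vehicle ovaries. The 6 granulosa markers, all measured, summed to 1392 to 1850.4 CPM in Mix ovaries, 2049.8 to 3343 CPM in BPA ovaries and 1319 to 1886 CPM in vehicle ovaries. None of these 13 measured markers was at 0 in any ovary. The theca sums of Mix and BPA ovaries were all above those of vehicle ovaries. In the fit over vehicle female organs, the luteal and steroid-producing list summed to 705 to 1024 CPM in liver and 1501 to 1759 CPM in ovary. In the same fit the theca list summed to 69.3 to 104 CPM in liver and 4.38 to 19.7 CPM in ovary. Its vehicle sums were thus higher in liver than in ovary. The part of cell makeup in these results was not tested.

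**Figure D3:**
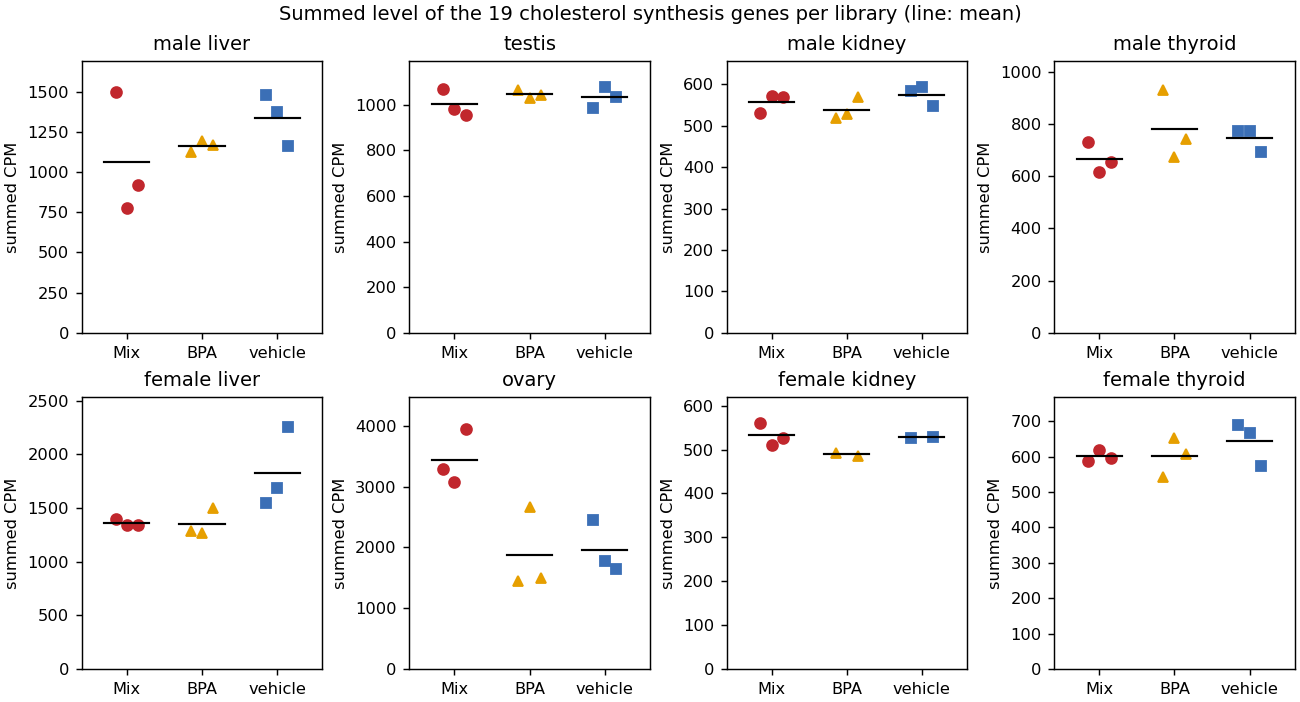
Summed level in CPM of the 19 enzymes of cholesterol synthesis in each rat, by organ and treatment, with 1 point a rat and a bar at the group mean. The 3 Mix ovaries are the highest ovaries, whereas Mix and BPA livers of both sexes overlap or lie below vehicle livers.

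In male liver 1 of 34 members passed in each comparison with vehicle, Insig1, which fell in Mix and in BPA rats. Of all genes, 0.134% rose and 0.186% fell in Mix, and 0.0517% rose and 0.176% fell in BPA. Insig1 stood at 29.2, 39.3 and 17.5 CPM in Mix livers, 30.9, 26.3 and 27.1 CPM in BPA livers and 135, 153 and 57.0 CPM in vehicle livers. Every Mix and BPA liver was below every vehicle liver, and vehicle replicate 3 was well below the other vehicle livers. Ribosomal RNA took 19.3%, 11.8% and 4.45% of the counts in Mix livers, 19.1%, 15.3% and 7.57% in BPA livers and 2.68%, 2.49% and 23.3% in vehicle livers of males. Among vehicle livers the one with low Insig1, replicate 3, had the highest share. Among Mix livers the lowest Insig1 was in the library with the lowest share. What set the Insig1 levels was not tested. Vehicle replicate 3 stood apart from vehicle replicates 1 and 2, with chi-square values per degree of freedom of 233 and 254, against 34.0 between replicates 1 and 2. Mix minus vehicle was -2.01 ± 0.34 (95% interval -2.74 to -1.28, adjusted p = 0.0164), and BPA minus vehicle -2.03 ± 0.34 (95% interval -2.76 to -1.31, adjusted p = 0.0199). In the BPA comparison the call was lost without vehicle replicate 1 or 2 or any 1 of the BPA livers (adjusted p up to 0.184). With the share of ribosomal RNA as a covariate it was also lost in BPA, at -1.81 (adjusted p = 0.0727), and kept in Mix, at -1.83 (adjusted p = 0.0396). Without vehicle replicate 3 the fold change was -2.33 in Mix (adjusted p = 0.00148) and -2.36 in BPA (adjusted p = 0.00182). The call was lost in the Mix comparison without vehicle replicate 1 or 2 or Mix replicate 1 or 3 (adjusted p up to 0.0862).

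Hmgcs1 had 406, 125 and 198 CPM in Mix livers, 236, 206 and 162 CPM in BPA livers and 426, 303 and 284 CPM in vehicle livers in males. The BPA livers were below all vehicle livers and the Mix livers spread across the range. In Mix minus vehicle the fold change was -0.48 ± 0.33 (adjusted p = 0.889) and BPA minus vehicle -0.75 ± 0.33 (adjusted p = 0.647). Idi1 had 30.8, 18.1 and 24.6 CPM in Mix livers, 25.1, 32.4 and 23.8 CPM in BPA livers and 53.5, 50.1 and 39.1 CPM in vehicle livers. Every treated liver was below every vehicle liver, with -0.96 ± 0.23 (95% interval -1.45 to -0.46, adjusted p = 0.143) for Mix and -0.81 ± 0.23 (adjusted p = 0.344) for BPA. DESeq2 called Idi1 in Mix beside Insig1, and 1.01% of all genes. Aacs, which activates acetoacetate for lipid synthesis, was scarce, at 0.569, 0 and 0.302 CPM in Mix livers, 0.380, 0.732 and 0.145 CPM in BPA livers and 2.17, 2.91 and 1.82 CPM in vehicle livers. Treated and vehicle livers did not overlap, and adjusted p was 0.275 for Mix and 0.489 for BPA.

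Srebf1 had 30.9, 172 and 64.5 CPM in Mix livers, 24.2, 25.2 and 69.2 CPM in BPA livers and 31.0, 36.3 and 70.2 CPM in vehicle livers in males. Mix replicate 2 held the highest value. Neither Mix minus vehicle, 0.96 ± 0.53 (adjusted p = 0.787), nor BPA minus vehicle, -0.21 ± 0.53 (adjusted p = 0.979), passed. Sqle stood at 18.6, 2.90 and 7.76 CPM in Mix livers, 8.62, 14.3 and 11.5 CPM in BPA livers and 23.04, 21.6 and 11.4 CPM in vehicle livers, with overlap between the groups. Fasn stood at 19.5, 6.07 and 8.67 CPM in Mix livers, 8.11, 8.78 and 14.1 CPM in BPA livers and 10.2, 8.10 and 10.6 CPM in vehicle livers, again with overlap. Sqle had -0.94 ± 0.46 (adjusted p = 0.781) in Mix and -0.71 ± 0.46 (adjusted p = 0.811) in BPA, and Fasn 0.25 ± 0.37 (adjusted p = 0.969) and 0.10 ± 0.37 (adjusted p = 0.986). Pnpla3 had 0 counts in all 9 male livers, which allows up to 0.236 to 0.435 CPM by library (3 counts, counting error only).

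The male medians over the members were -0.31 for Mix and -0.096 for BPA, against -0.0023 and -0.0055 over all genes. A total of 26 of 34 members had a negative fold change in Mix, 18 in BPA. All 11 genes between squalene and cholesterol were negative in Mix. These signs come from the same livers and are not independent, and the share of all genes that were negative is not reported here. Mix livers lay below vehicle livers for 4 of 34 members, against 6.15% of all genes, and above for 0, against 5.77%. BPA livers lay below for 5, against 7.46%, and above for 1, Sc5d, against 6.42%. The sum over cholesterol synthesis was 1499.6, 779 and 916 CPM in Mix livers, 1125, 1191 and 1167 CPM in BPA livers and 1479, 1375 and 1158 CPM in vehicle livers. Mix replicate 1 was the highest Mix liver for 16 of the 19 enzymes and Mix replicate 2 the lowest for 15. Between Mix and BPA 0 of 34 passed in edgeR and in DESeq2, and 0.0103% of all genes did in edgeR. At an unadjusted p under 0.05 there were 3, against 6.18% of all genes. Of the members, Tm7sf2, -0.73 ± 0.28 (adjusted p = 0.728), and Pmvk, -0.66 ± 0.29 (adjusted p = 0.772), had the smallest p for that difference. Mix minus BPA was 0.27 (95% interval -0.44 to 0.98) for Hmgcs1 and -0.23 (95% interval -1.24 to 0.78) for Sqle. It was 1.18 (95% interval 0.037 to 2.31) for Srebf1 and 0.15 (95% interval -0.65 to 0.95) for Fasn.

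In female liver 0 of 34 members passed in any comparison in edgeR, where 0.0523% of all genes passed for Mix minus vehicle, 0.419% for BPA minus vehicle and 0 for Mix minus BPA. At an unadjusted p under 0.05 there were 7 members lower and 0 higher in Mix, where 2.87% of all genes were lower and 3.75% higher. In BPA there were 7 lower and 1 higher, against 5.77% and 5.66% of all genes. Between Mix and BPA 2 were lower and 0 higher, against 2.97% and 3.53%. DESeq2 called Hmgcs1 alone in each comparison with vehicle and 0 members between Mix and BPA. Of all genes it called 0.576% in Mix and 2.05% in BPA. Hmgcs1 stood at 161, 112.4 and 129 CPM in Mix livers, 157, 134 and 164 CPM in BPA livers and 242, 216 and 321 CPM in vehicle livers. All 6 treated livers were below the 3 vehicle livers. In Mix minus vehicle the fold change was -0.95 ± 0.21 (95% interval -1.40 to -0.51, adjusted p = 0.173). It was -0.78 ± 0.21 (95% interval -1.22 to -0.33, adjusted p = 0.136) for BPA minus vehicle and -0.18 ± 0.21 (adjusted p = 0.925) for Mix minus BPA.

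Fdps had 55.9, 71.9 and 69.3 CPM in Mix livers, 70.9, 67.6 and 88.5 CPM in BPA livers and 80.9, 126.4 and 169 CPM in vehicle livers of females. It was lower in every Mix than in every vehicle liver, with Mix minus vehicle -0.93 ± 0.25 (95% interval -1.46 to -0.40, adjusted p = 0.294). Cyp51 had 216, 206 and 191 CPM in Mix livers, 153, 129.7 and 225 CPM in BPA livers and 211, 300.2 and 331 CPM in vehicle livers. Its BPA and vehicle livers overlapped, and BPA minus vehicle was -0.73 ± 0.23 (95% interval -1.22 to -0.24, adjusted p = 0.210). Insig1, the gene that fell in males, stood at 54.2, 46.4 and 55.4 CPM in Mix livers, 44.7, 73.6 and 96.2 CPM in BPA livers and 54.9, 60.6 and 62.5 CPM in vehicle livers. The female groups overlapped, with -0.19 ± 0.24 (95% interval -0.71 to 0.33, adjusted p = 0.947) for Mix minus vehicle and 0.27 ± 0.24 (95% interval -0.25 to 0.79, adjusted p = 0.733) for BPA minus vehicle.

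Sqle had 17.3, 12.8 and 14.1 CPM in Mix livers, 16.6, 9.73 and 17.9 CPM in BPA livers and 16.4, 18.999 and 38.0 CPM in vehicle livers of females, and the groups overlapped. Fasn had 9.97, 10.1 and 9.87 CPM in Mix livers, 16.9, 10.2 and 14.4 CPM in BPA livers and 6.04, 9.35 and 29.3 CPM in vehicle livers, with the Mix and BPA livers inside the range of the vehicle livers. Srebf1 had 15.8, 24.2 and 20.2 CPM in Mix livers, 15.8, 7.76 and 29.4 CPM in BPA livers and 25.8, 13.4 and 23.2 CPM in vehicle livers, also with overlap. Vehicle replicate 3 carried the highest vehicle value of Sqle and Fasn, and of 15 of the 19 enzymes of cholesterol synthesis. Mix minus vehicle was -0.73 ± 0.33 (adjusted p = 0.715) for Sqle, -0.056 ± 0.38 (adjusted p = 0.988) for Srebf1 and -0.57 ± 0.44 (adjusted p = 0.889) for Fasn. BPA minus vehicle was -0.73 ± 0.33 (adjusted p = 0.408) for Sqle, -0.25 ± 0.39 (adjusted p = 0.861) for Srebf1 and -0.10 ± 0.44 (adjusted p = 0.953) for Fasn. Pnpla3 was read in 1 of 9 livers, a BPA one, at 0.309 CPM.

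The female medians over the members were -0.29 for Mix and -0.098 for BPA, against 0.0049 and 0.0035 over all genes. Mix livers lay below vehicle livers for 9 of 34 members, against 6.92% of all genes, and above for 0, against 7.65%. BPA livers lay below for 5, against 8.06%, and above for 0, against 7.65%. The 9 were Hmgcs1, Idi1 and Fdps of the mevalonate pathway, Nsdhl, Ebp and Sc5d of the later steps, and Me1, Fads1 and Mlxipl. The 8 mevalonate genes summed to 295, 255 and 282 CPM in Mix livers, 298, 271 and 375 CPM in BPA livers and 409, 436 and 612 CPM in vehicle livers. Every Mix and BPA sum was below every vehicle sum. Hepatocyte markers were also lower, with a summed level of 64694 to 109699 CPM in Mix livers, 77942 to 81452 CPM in BPA livers and 115978 to 134956 CPM in vehicle livers. Their part in the result was not tested. Mix minus BPA had its smallest p for Me1, malic enzyme, with 22.6, 18.9 and 19.5 CPM in Mix livers, 55.4, 31.6 and 23.7 CPM in BPA livers and 30.4, 26.1 and 37.5 CPM in vehicle livers. Mix minus BPA was -0.86 ± 0.28 (adjusted p = 0.598) for Me1 and, next, -0.93 ± 0.43 (adjusted p = 0.765) for Mvk, mevalonate kinase.

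**Figure D4:**
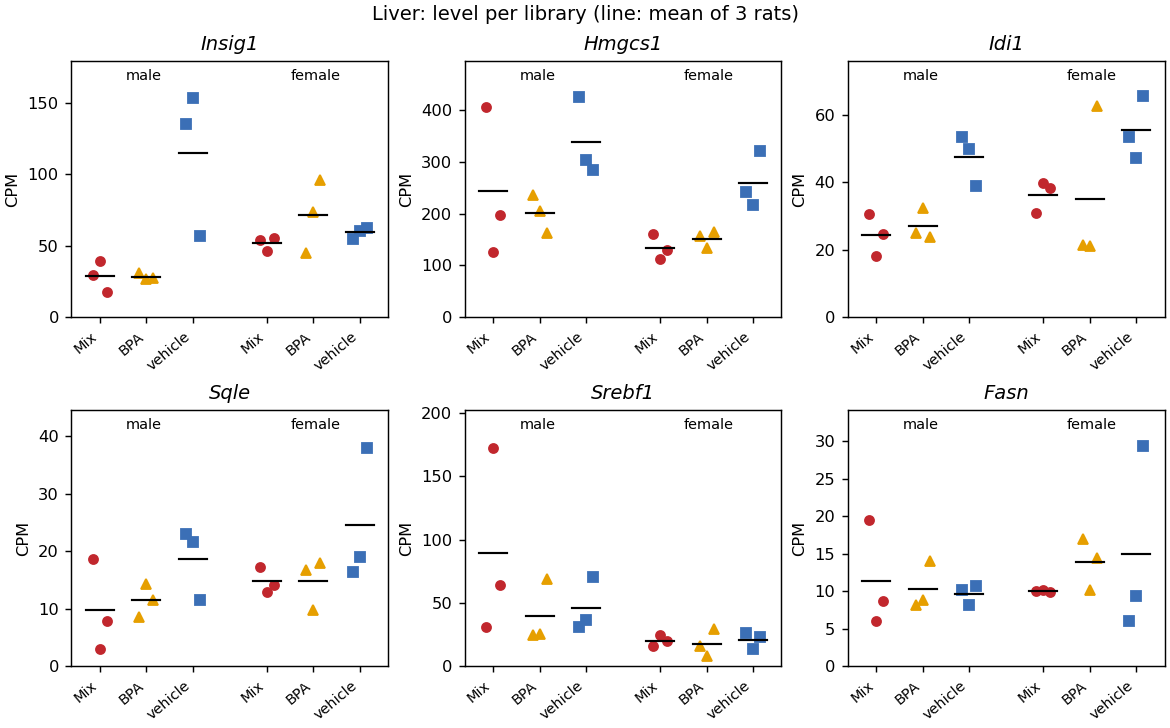
Levels in CPM of 6 members in each male and female liver, by treatment, with 1 point a rat and a bar at the group mean. The 6 treated male livers lie below the 3 vehicle male livers for Insig1, and the 6 treated female livers below the 3 vehicle female livers for Hmgcs1.

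When both sexes were fitted together, the mean of the sexes for Mix minus vehicle passed for 1 of 35 members, Insig1, at -1.102 ± 0.22 (95% interval -1.57 to -0.64, adjusted p = 0.0484), where 0.0996% of all genes fell. For BPA minus vehicle 0 of 35 passed in edgeR (0.339% of all genes did), 8 were lower at an unadjusted p under 0.05, where 4.97% of all genes were. DESeq2 called 2 members and 1.22% of all genes. Insig1 had -0.88 ± 0.22 (adjusted p = 0.111) and Hmgcs1 -0.76 ± 0.21 (adjusted p = 0.169). Hmgcs1 had -0.72 ± 0.21 (adjusted p = 0.267) for Mix minus vehicle. The difference between the sexes, female minus male, passed for Insig1 in BPA rats, at 2.31 ± 0.45 (95% interval 1.37 to 3.24, adjusted p = 0.0306), where 0.119% of all genes had a difference above 0 that passed. In Mix rats the same difference for Insig1 was 1.81 ± 0.45 (95% interval 0.89 to 2.74, adjusted p = 0.133) and did not pass in edgeR, where 0.189% of all genes did. DESeq2 called it, with 0.518% of all genes. For Hmgcs1 the difference between the sexes was -0.028 ± 0.43 (95% interval -0.91 to 0.86, adjusted p = 0.995) in BPA and -0.48 ± 0.43 (95% interval -1.37 to 0.40, adjusted p = 0.935) in Mix rats. The Insig1 difference in BPA rats was lost with the share of ribosomal RNA as a covariate (2.08, adjusted p = 0.0906), with the replicate number as a block (2.28, adjusted p = 0.0514), and in 9 of 18 fits that left out 1 rat (adjusted p up to 0.116). The Insig1 mean in Mix rats passed in 5 of 18 such fits (adjusted p up to 0.177). It was lost with the share of ribosomal RNA as a covariate (-1.04, adjusted p = 0.0773) and with the block (-1.0976, adjusted p = 0.0681). Female livers had ribosomal RNA shares of 18.3% to 20.6% in Mix, 18.9% to 20.05% in BPA and 13.9% to 24.1% in vehicle rats. Between Mix and BPA 0 of 35 passed for the mean of the sexes (0.0299% of all genes did) or for their difference (0 of all genes did) in edgeR or DESeq2, with 3 and 2 at an unadjusted p under 0.05, where 6.23% and 6.93% of all genes were. Pmvk and Tm7sf2 had the smallest p for the mean, at -0.53 ± 0.23 (adjusted p = 0.746) and -0.41 ± 0.17 (adjusted p = 0.737). Elovl5 and Me1 had the smallest p for the difference, at 3.59 ± 1.30 (adjusted p = 0.611) and -0.83 ± 0.39 (adjusted p = 0.713).

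Without treatment, liver was the organ with the highest mean for the greatest number of members. Levels here come from fits over the 4 organs of vehicle rats of a sex and are scaled differently from those above. In vehicle males 23 of 36 members tested were higher in liver than in the mean of the other 3 organs, where 30.2% of all genes were, and 6 were lower, where 35.5% were. Testis had 12 higher and 17 lower (41.1% and 39.8% of all genes), thyroid 9 and 17 (31.4% and 31.4%) and kidney 8 and 12 (30.4% and 25.6%). In vehicle females liver had 15 higher and 1 lower (18.2% and 16.5%), ovary 12 and 6 (14.1% and 11.7%), thyroid 5 and 15 (21.8% and 17.4%) and kidney 4 and 11 (13.5% and 6.72%). With all rats the members called in either direction in females were 16 in liver, 18 in ovary, 20 in thyroid and 15 in kidney. Without vehicle female 2 fewer were called in each organ, and that fit held 1 vehicle kidney. Its counts, of members and of all genes, are not reported here. The sum over the 19 enzymes of cholesterol synthesis was 1950.3 to 2662 CPM in male liver, 980.2 to 1121 CPM in testis, 548 to 614 CPM in male thyroid and 481 to 525 CPM in male kidney. In females it was 2557 to 3605 CPM in liver, 1232 to 1858 CPM in ovary, 425 to 509.97 CPM in thyroid and 460.04 to 469 CPM in kidney.

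Hmgcs1 averaged 601 ± 149.6 CPM in liver, 114 ± 7.71 CPM in testis, 28.5 ± 1.73 CPM in kidney and 22.6 ± 2.62 CPM in thyroid of vehicle males (SD, n = 3 each). In vehicle females it averaged 418 ± 88.0 CPM in liver, 148 ± 28.7 CPM in ovary, 24.3 ± 4.21 CPM in thyroid and 20.3 ± 0.823 CPM in kidney (SD, n = 3, kidney n = 2). Liver stood apart from the next organ in both sexes. Nsdhl, an enzyme of demethylation, averaged 127.96 ± 9.06 CPM in liver, 12.8 ± 0.914 CPM in kidney, 12.1 ± 1.57 CPM in thyroid and 1.75 ± 0.418 CPM in testis of males. Insig2, the other Insig gene, was read at 12.7 ± 3.98 CPM in liver and 0.435 ± 0.260 CPM in testis of males and Fads2 at 52.5 ± 28.3 CPM in liver and 4.34 ± 1.03 CPM in thyroid.

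Ovary and testis led for a part of the pathway. Idi1 averaged 372 ± 68.1 CPM in ovary, 89.4 ± 15.1 CPM in liver, 35.8 ± 9.15 CPM in thyroid and 16.5 ± 9.90 CPM in kidney of vehicle females, and ovary stood apart. Srebf2 was also highest there, at 91.6 ± 27.4 CPM in ovary and 56.2 ± 8.63 CPM in liver. In males, Fdft1 averaged 171 ± 15.4 CPM in testis, 68.0 ± 17.3 CPM in liver, 65.4 ± 5.47 CPM in kidney and 19.6 ± 3.72 CPM in thyroid, with testis apart, and Fdps 146 ± 10.7 CPM in testis and 79.4 ± 18.5 CPM in liver. Cyp51 had 367 ± 30.9 CPM in testis and 319 ± 38.4 CPM in liver of males, where the organs overlapped. Thyroid led for Sqle, at 203.4 ± 27.9 CPM in thyroid, 73.7 ± 3.12 CPM in testis, 33.5 ± 12.4 CPM in liver and 19.9 ± 1.61 CPM in kidney of males. Sqle averaged 127.5 ± 14.2 CPM in thyroid, 68.2 ± 20.2 CPM in ovary, 39.3 ± 18.7 CPM in liver and 9.96 ± 2.08 CPM in kidney of females. Adipocyte markers summed to 639 to 938 CPM in vehicle thyroids and 68.3 to 246 CPM in the other vehicle organs of males. In females they summed to 674 to 5557 CPM in vehicle thyroids and 60.1 to 152 CPM in the other vehicle organs, and their part was not tested. Aacs was highest in thyroid too, at 35.3 ± 5.48 CPM in thyroid and 4.10 ± 1.15 CPM in liver of males, and so was Fasn, at 84.6 ± 17.6 CPM in thyroid, 33.3 ± 6.10 CPM in kidney, 20.6 ± 1.21 CPM in testis and 17.1 ± 1.91 CPM in liver. Kidney led for Acss2, at 343 ± 48.6 CPM in kidney, 37.3 ± 10.3 CPM in liver, 36.2 ± 2.36 CPM in testis and 25.1 ± 6.97 CPM in thyroid of males. In females Acss2 averaged 208 ± 55.9 CPM in kidney, 37.6 ± 14.7 CPM in liver, 30.2 ± 15.1 CPM in thyroid and 15.1 ± 2.86 CPM in ovary. Kidney also led for Elovl6 and for Pnpla3, the last at 4.81 ± 0.426 CPM in kidney, 1.99 ± 0.298 CPM in thyroid, 0.348 ± 0.278 CPM in testis and 0 ± 0 CPM in liver of males.

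By mean, the highest organ in males was liver for 19 members, testis for 8, thyroid for 6 and kidney for 4; all rats of that organ were above all rats of the next organ for 15, 3, 4 and 3 of them. In females it was liver for 17, ovary for 9, kidney for 6 and thyroid for 5, apart from the next organ for 11, 4, 4 and 2. The same organ was highest in both sexes for 20 of the 37 genes.

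**Figure D5:**
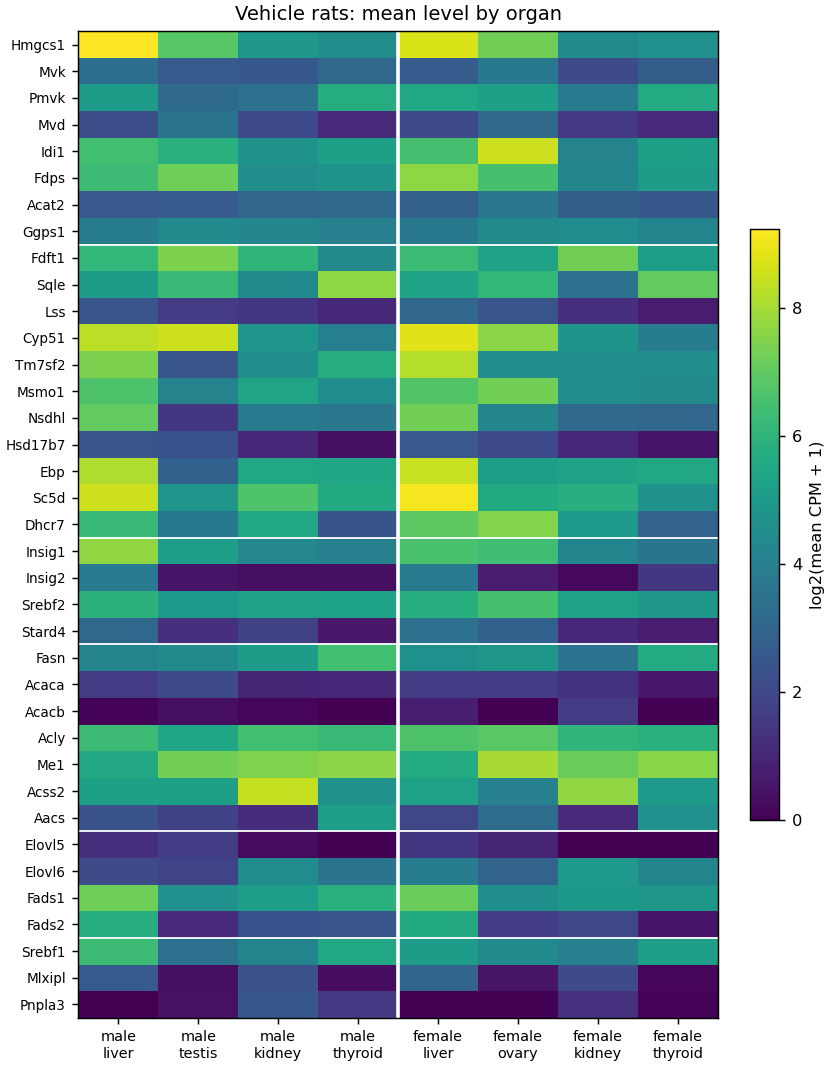
Mean level of each member in the organs of vehicle rats, males and females, grouped by role. Liver holds the highest mean for 19 of 37 members in males and 17 of 37 in females.

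In testis 0 of 34 members passed in edgeR or DESeq2 in any comparison, with 1 member at an unadjusted p under 0.05 in each; 0 genes of all passed for Mix and for BPA minus vehicle and 0.775% for Mix minus BPA. Of all genes, those at an unadjusted p under 0.05 were 5.33% for Mix minus vehicle, 12% for BPA minus vehicle and 17.2% for Mix minus BPA. The smallest p in BPA was that of Me1, the cytosolic malic enzyme, with 136, 134 and 135 CPM in Mix testes, 126.4, 119.5 and 134 CPM in BPA testes and 151, 137 and 159 CPM in vehicle testes. BPA minus vehicle was -0.24 ± 0.10 (adjusted p = 0.397). Idi1 followed, with 63.2, 48.1 and 62.96 CPM in Mix testes, 43.8, 48.6 and 47.3 CPM in BPA testes and 51.6, 60.3 and 57.3 CPM in vehicle testes. Here BPA minus vehicle was -0.28 ± 0.14 (adjusted p = 0.441) and Mix minus BPA 0.32 ± 0.14 (adjusted p = 0.264). For both genes the BPA testes were below the vehicle testes, by small margins, and the Mix testes overlapped the vehicle ones or lay just below them. Pnpla3 had 1.68, 0.382 and 1.26 CPM in Mix testes, 0.862, 1.17 and 0.644 CPM in BPA testes and 0.648, 0.0884 and 0.302 CPM in vehicle testes. The groups overlapped, with 1.68 ± 0.73 (adjusted p = 0.934) for Mix minus vehicle. Sqle had 61.2, 66.4 and 62.2 CPM in Mix testes, 70.3, 65.4 and 76.8 CPM in BPA testes and 70.6, 71.9 and 74.2 CPM in vehicle testes. Its Mix testes were below its vehicle testes, with -0.19 ± 0.11 (adjusted p = 0.989). Fads1 had -0.54 ± 0.31 (adjusted p = 0.397) for Mix minus BPA.

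In male kidney 0 of 33 passed in edgeR or DESeq2, with 4 at an unadjusted p under 0.05 in each comparison; 0.0273% of all genes passed for Mix minus vehicle, 0.136% for BPA minus vehicle and 2.93% for Mix minus BPA. The shares of all genes at that unadjusted p were 9.2% for Mix minus vehicle, 21% for BPA minus vehicle and 15.4% for Mix minus BPA. Acly had 55.1, 83.5 and 77.1 CPM in Mix kidneys, 70.6, 72.9 and 54.2 CPM in BPA kidneys and 99.0, 94.7 and 102 CPM in vehicle kidneys of males. All treated kidneys were below the vehicle kidneys, with -0.45 ± 0.19 (adjusted p = 0.511) for Mix and -0.58 ± 0.19 (adjusted p = 0.126) for BPA. Fads1 had 28.3, 33.6 and 23.9 CPM in Mix kidneys, 20.5, 31.3 and 25.1 CPM in BPA kidneys and 45.4, 39.4 and 35.7 CPM in vehicle kidneys. It was likewise lower in every treated kidney, with BPA minus vehicle -0.64 ± 0.22 (adjusted p = 0.135). Dhcr7 had -0.48 ± 0.17 (adjusted p = 0.488) for Mix minus vehicle. Mix minus BPA was 1.28 ± 0.45 (adjusted p = 0.182) for Stard4 and 0.60 ± 0.21 (adjusted p = 0.192) for Sqle. Testis transcripts were read in these kidneys, with germ cell markers summing to 1008 to 1841 CPM in Mix kidneys, 125.8 to 337 CPM in BPA kidneys and 368 to 622 CPM in vehicle kidneys. The ribosomal RNA share was 1.40% to 20.1% in Mix, 16.3% to 37.1% in BPA and 1.69% to 3.47% in vehicle kidneys; their part in these values was not tested.

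In female kidney 0 of 34 passed in edgeR or DESeq2 and 0 of all genes passed, with 1 member at an unadjusted p under 0.05 for Mix and for BPA minus vehicle and 2 for Mix minus BPA. At that unadjusted p stood 10.4% for Mix minus vehicle, 16.4% for BPA minus vehicle and 7.29% for Mix minus BPA, of all genes. Elovl6, which elongates palmitate, had 42.0, 31.2 and 46.5 CPM in Mix kidneys, 23.5 and 17.2 CPM in BPA kidneys and 35.2 and 35.5 CPM in vehicle kidneys. The BPA kidneys were below the rest, with BPA minus vehicle -0.79 ± 0.26 (adjusted p = 0.210) and Mix minus BPA 0.97 ± 0.24 (adjusted p = 0.683). Sc5d had 111.1, 96.99 and 94.5 CPM in Mix kidneys, 55.5 and 84.1 CPM in BPA kidneys and 69.8 and 57.1 CPM in vehicle kidneys. The Mix kidneys were above the rest, with Mix minus vehicle 0.67 ± 0.22 (adjusted p = 0.391) and Mix minus BPA 0.53 ± 0.22 (adjusted p = 0.683). Fasn stood at 17.4, 67.6 and 15.1 CPM in Mix kidneys, 20.9 and 9.40 CPM in BPA kidneys and 9.71 and 14.0 CPM in vehicle kidneys. The value of Mix replicate 2 was far above the others, in a library with 914 CPM of adipocyte markers and 36.7 CPM of Ucp1, the uncoupling protein of brown fat. Mix minus vehicle was 1.48 ± 0.66 (adjusted p = 0.482). Acat2 had 0.53 ± 0.37 (adjusted p = 0.505) for BPA minus vehicle.

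In male thyroid 0 of 33 passed in edgeR, and 0 of all genes, with 1 member at an unadjusted p under 0.05 for Mix and for BPA minus vehicle and 2 for Mix minus BPA. All genes had 4.96% for Mix minus vehicle, 8.23% for BPA minus vehicle and 13.8% for Mix minus BPA at that unadjusted p. DESeq2 called 1, 0 and 0 members, and 0.306% of all genes for Mix minus vehicle. Fasn had 53.2, 60.5 and 51.6 CPM in Mix thyroids, 70.6, 70.2 and 95.2 CPM in BPA thyroids and 93.4, 132 and 95.3 CPM in vehicle thyroids of males. The Mix thyroids were the 3 lowest and the vehicle thyroids the highest save for 1 BPA value. Its fold change for Mix minus vehicle was -0.96 ± 0.21 (95% interval -1.43 to -0.49, adjusted p = 0.701), BPA minus vehicle -0.44 ± 0.21 (adjusted p = 0.586) and Mix minus BPA -0.51 ± 0.21 (adjusted p = 0.327). It was the member called by DESeq2 for Mix minus vehicle. Adipocyte markers summed to 502 to 919.7 CPM in Mix thyroids, 731 to 1878 CPM in BPA thyroids and 812 to 1183 CPM in vehicle thyroids. Ucp1 was 0.235 to 9.60 CPM in Mix thyroids, 21.9 to 36.6 CPM in BPA thyroids and 36.0 to 44.5 CPM in vehicle thyroids. It was lowest in Mix, as Fasn was. Follicle markers summed to 62701 to 83537 CPM in Mix thyroids, 40536 to 67563 CPM in BPA thyroids and 71388 to 105817 CPM in vehicle thyroids and germ cell markers to 28.7 to 51.4 CPM in Mix thyroids, 46.0 to 14797 CPM in BPA thyroids and 54.8 to 689.8 CPM in vehicle thyroids. The part of these markers was not tested. Dhcr7 had -0.99 ± 0.54 (adjusted p = 0.922) for Mix minus vehicle. Aacs had -0.67 ± 0.26 (adjusted p = 0.586) and Fads2 -1.49 ± 0.67 (adjusted p = 0.586) for BPA minus vehicle, and Msmo1 0.71 ± 0.29 (adjusted p = 0.330) for Mix minus BPA.

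In female thyroid 0 of 30 passed in edgeR, where 0.00899% of all genes passed for Mix minus vehicle and 0 in the other comparisons. In all, 4 members were at an unadjusted p under 0.05 for Mix minus vehicle, 6 for BPA minus vehicle and 0 for Mix minus BPA. Among all genes that share was 23% for Mix minus vehicle, 13.3% for BPA minus vehicle and 5.84% for Mix minus BPA. DESeq2 called 1, 0 and 0 members, and 12.2% of all genes for Mix minus vehicle. Me1 had 144, 137 and 187 CPM in Mix thyroids, 186, 191 and 177 CPM in BPA thyroids and 219.8, 272 and 297 CPM in vehicle thyroids of females. Every treated thyroid was below every vehicle thyroid. Mix minus vehicle was -0.76 ± 0.21 (95% interval -1.22 to -0.29, adjusted p = 0.0851), and this was the member DESeq2 called. Fdft1 stood at 13.7, 32.0 and 24.0 CPM in Mix thyroids, 19.7, 32.5 and 23.2 CPM in BPA thyroids and 37.4, 45.7 and 57.9 CPM in vehicle thyroids. Again every treated thyroid was below every vehicle thyroid, with -1.02 ± 0.35 (adjusted p = 0.131) for Mix and -0.90 ± 0.35 (adjusted p = 0.342) for BPA. Ebp had -0.62 ± 0.24 (adjusted p = 0.335) for BPA minus vehicle, and Mix minus BPA was 0.65 ± 0.36 (adjusted p = 0.912) for Sc5d and -0.52 ± 0.37 (adjusted p = 0.950) for Srebf2. Adipocyte markers summed to 595 to 1691 CPM in Mix thyroids, 655 to 1581 CPM in BPA thyroids and 913 to 7512 CPM in vehicle thyroids. Hepatocyte markers summed to 16.6 to 54.2 CPM in Mix thyroids, 11.4 to 121 CPM in BPA thyroids and 61.1 to 3688 CPM in vehicle thyroids. Germ cell markers were read too, at 42.4 to 244 CPM in Mix thyroids, 31.2 to 393 CPM in BPA thyroids and 39.0 to 3466 CPM in vehicle thyroids. Markers of the thyroid follicle summed to 53578 to 73860.0 CPM in Mix thyroids, 48636 to 56091 CPM in BPA thyroids and 29341 to 50592 CPM in vehicle thyroids, and every Mix sum was above every vehicle sum. Ribosomal RNA was 11.7% to 23.7% of Mix, 1.93% to 7.39% of BPA and 0.657% to 3.25% of vehicle libraries. The part of these in the result was not tested. Without vehicle replicate 1 the Mix comparison called 4 members, Lss, Me1, Sc5d and Tm7sf2. The share of all genes called in that fit is not reported here. With all rats, Me1 was lower and Sc5d higher in every Mix than in every vehicle thyroid.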

How the data were processed

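Total RNA was extracted with TRIzol and libraries were made with a QuantSeq 3′ mRNA kit, per the labels' protocols. The submitters' processing notes name the rat build rn6 and the tools Bowtie2, FastQC, edgeR and bedtools, without versions. The authors deposited raw counts per gene for 70 libraries. How multi-mapped reads and strand were treated is not given in the sources used here, so genes with near-identical copies or overlapping neighbours are uncertain; 316 rows carry 149 repeated symbols, none of them a member.

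Counts were fitted per organ and sex with edgeR 4.0.16 in R 4.3.3 (filterByExpr, TMM scaling, quasi-likelihood test, 3 treatment groups per fit; for liver also both sexes together; for vehicle rats the 4 organs of a sex), with Benjamini-Hochberg adjustment over all genes and a threshold of 0.05. Levels are CPM on TMM-scaled totals. Library totals of 4803807 to 10929957 counts limit the precision of scarce genes. The alternatives were DESeq2 1.42.0 size factors, its test, no filter on low counts, the ribosomal RNA share as a covariate, the replicate number as a block, and leaving out each library.

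Tested on simulated counts for Mix minus vehicle, the ovary fit recovered 55% of genes changed by 1 and 84% of those changed by 2 on the log2 scale (10608 genes), the female liver fit 34% and 85% (9381 genes) and the male liver fit 38% and 92% (9415 genes). Each simulated group held 3 rats, and the genes changed were not drawn from the scarce ones. Of 68 replicate pairs, none agreed within sampling noise (lowest chi-square per degree of freedom 8.80). Genes were named if called, or in liver and ovary if they were Insig1, Hmgcs1, Sqle, Srebf1, Fasn or Pnpla3, or, where none was called, if they had the 2 smallest p-values; others named were chosen after their values were seen. The other gene of lipid synthesis that passed in Mix ovaries, counted beside Mid1ip1, is not reported here. The members, lists and tests were chosen with earlier results of these data known.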

Additional observations from a re-analysis of the deposited data

Results flagged for a closer look

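Insig1 was picked out because the response of liver to bisphenol A differed between the sexes in a test of the difference itself. The log2 difference, female minus male, of BPA minus vehicle was 2.31 ± 0.45 (edgeR, adjusted p = 0.0306): Insig1 was lower in 3 of 3 BPA than in all vehicle male livers, and BPA and vehicle livers overlapped in females. Vehicle males were high and spread widely, at 57.0 to 153 CPM, against 54.9 to 62.5 CPM in vehicle females. The male vehicle liver at 57.0 CPM had 23.3% ribosomal RNA and the other male vehicle livers 2.68% and 2.49%, against 13.9% to 24.1% in vehicle females. The difference did not pass with that share as a covariate (2.08, adjusted p = 0.0906), with the replicate block (2.28, adjusted p = 0.0514), or in 9 of 18 fits that left out 1 rat.

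Fasn in kidney was picked out because Mix minus vehicle ran in opposite directions in the sexes, 1.48 on the log2 scale in females and -0.43 in males. Mix replicate 2 of the females, at 67.6 CPM against 17.4 and 15.1 CPM in the other Mix kidneys, set the size of the female value. That library held 914 CPM of adipocyte markers and 36.7 CPM of Ucp1, and without it the fold change was 0.45 (adjusted p = 0.783). All 3 Mix kidneys of females were above both vehicle kidneys, and all 3 Mix kidneys of males below the 3 vehicle kidneys; the difference between the sexes was not tested, and neither fold change passed (edgeR, adjusted p = 0.482 and 0.525).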

How the results depend on the processing

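Of the members called in the ovary, Hsd17b7 and Acss2 passed for Mix minus vehicle in all 9 fits that left out 1 ovary, Msmo1 in 6, Hmgcs1 and Sc5d in 5, Ebp in 4 and Acly in 2. For the fits that left out 1 rat, the shares of all genes called are not reported here. The count of members called, leaving out each rat in turn, was 2 to 10 for Mix minus vehicle in ovary, 0 to 1 for Mix and for BPA minus vehicle in male liver, 0 to 1 for BPA minus vehicle in female liver, 0 to 1 for BPA minus vehicle in male kidney, and 0 to 4 for Mix and 0 to 1 for BPA minus vehicle in female thyroid. In the joint liver fit it was 0 to 2 for the mean of the sexes in Mix, and 0 to 1 for the mean in BPA and for the difference between the sexes in Mix and in BPA. Among vehicle females it was 3 to 11 in kidney, 10 to 19 in thyroid and 5 to 17 in ovary, each lowest without rat 2, against 15, 20 and 18 with all rats.

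With the DESeq2 test, the count was 9 for Mix minus vehicle and 7 for Mix minus BPA in ovary, 2 for Mix minus vehicle in male liver, and 1 each for Mix and BPA minus vehicle in female liver and for Mix minus vehicle in male and in female thyroid. In the joint liver fit DESeq2 called 2 for the mean of the sexes in BPA and 1 for the difference between the sexes in Mix. The shares of all genes it called stand above, save that for Mix minus vehicle in ovary, which is not reported here. For the next settings the calls over all genes tested are in brackets. Without a filter on low counts the members called were 4 for Mix minus BPA in ovary (85 of 14307) and 2 for Mix minus vehicle in male liver (116 of 13833). In female liver they were 3 for Mix (109 of 13493) and 2 for BPA minus vehicle (229 of 13493). For the mean of the sexes they were 3 in Mix (90 of 14320) and 5 in BPA (155 of 14320). For the difference between the sexes in Mix the count was 1 (74 of 14320). With ribosomal RNA share as a covariate the count was 4 for Mix (638 of 10871) and 0 for BPA minus vehicle in ovary (100 of 10871). The count was also 0 for BPA minus vehicle in male liver (19 of 9669). It was 0 for the mean of the sexes in Mix (17 of 10044) and 0 for the difference between the sexes in BPA (12 of 10044). The cause of these differences was not tested.

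As a check of pairing by replicate number, the correlation of same-numbered libraries' deviations was -0.39 to 0.23. It was over 0.1 in 9 of 69 pairs, and 5 of these were in male kidney. Deviations within so small a group are bound to each other, so this check cannot exclude a pairing by number. With the number as a block, 0 members were called for the mean of the sexes in Mix and 0 for the difference between the sexes in BPA, and in Mix ovaries Dhcr7 was called in place of Ebp; the block changed no other call in the treatment comparisons. With the block, Fasn was 0.088 for female liver BPA minus vehicle, Fasn was 0.027 for liver sex mean of BPA minus vehicle, Hmgcs1 was -0.013 for liver sex mean of Mix minus BPA, Hmgcs1 was -0.012 for ovary BPA minus vehicle, Insig1 was -0.074 for male liver Mix minus BPA, Srebf1 was 0.027 for female liver Mix minus vehicle. In vehicle rats, whose organs carry a shared animal code in the labels, a block for the rat moved the counts of members called by organ by at most 1.

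Directions of members that were not called turned with the setting. With DESeq2 size factors in edgeR, Sqle was -0.011 for female liver Mix minus BPA. With the DESeq2 test, Sqle was -0.012 for female liver Mix minus BPA. With ribosomal RNA share as a covariate, Fasn was 0.22 for female liver BPA minus vehicle, Fasn was -0.016 for ovary BPA minus vehicle, Hmgcs1 was 0.11 for liver sex difference of BPA minus vehicle, Insig1 was -0.018 for male liver Mix minus BPA, Sqle was -0.029 for female liver Mix minus BPA, Sqle was 0.044 for liver sex difference of BPA minus vehicle, Sqle was -0.090 for ovary BPA minus vehicle, Srebf1 was -0.24 for ovary BPA minus vehicle, Srebf1 was 0.15 for ovary Mix minus BPA, Srebf1 was -0.088 for ovary Mix minus vehicle. The fold changes that changed sign when 1 rat was left out had these lowest and highest log2 values. In female liver BPA minus vehicle, Fasn -0.48 to 0.85, Insig1 -0.0019 to 0.52, Srebf1 -0.82 to 0.11. In female liver Mix minus BPA, Sqle -0.23 to 0.16, Srebf1 -0.17 to 0.76. In female liver Mix minus vehicle, Fasn -0.96 to 0.38, Srebf1 -0.29 to 0.13. In liver sex difference of BPA minus vehicle, Fasn -0.59 to 0.77, Hmgcs1 -0.23 to 0.17, Sqle -0.24 to 0.46, Srebf1 -0.61 to 0.63. In liver sex difference of Mix minus BPA, Hmgcs1 -0.77 to 0.13, Sqle -0.20 to 1.07. In liver sex difference of Mix minus vehicle, Fasn -1.22 to 0.14, Hmgcs1 -0.80 to 0.10, Sqle -0.22 to 1.05. In liver sex mean of BPA minus vehicle, Fasn -0.20 to 0.48. In liver sex mean of Mix minus BPA, Hmgcs1 -0.25 to 0.20, Sqle -0.54 to 0.10. In liver sex mean of Mix minus vehicle, Fasn -0.48 to 0.32. In male liver BPA minus vehicle, Fasn -0.19 to 0.24, Srebf1 -0.88 to 0.23. In male liver Mix minus BPA, Fasn -0.47 to 0.45, Hmgcs1 -0.32 to 0.58, Insig1 -0.27 to 0.28, Sqle -1.07 to 0.20. In male liver Mix minus vehicle, Fasn -0.37 to 0.55. In ovary BPA minus vehicle, Fasn -0.014 to 0.29, Hmgcs1 -0.32 to 0.23, Insig1 -0.59 to 0.035, Sqle -0.19 to 0.38, Srebf1 -0.11 to 0.52. In ovary Mix minus BPA, Fasn -0.13 to 0.12, Srebf1 -0.21 to 0.065. In ovary Mix minus vehicle, Insig1 -0.0024 to 0.43, Srebf1 -0.19 to 0.45. Shallow counts limit the scarce members, among them Pnpla3, Acacb, Elovl5 and Aacs. With 3 rats a group, changes of 1 on the log2 scale were often missed in the simulation, which changed no scarce genes. Groups of 2 rats were not simulated.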
